A study of Mus musculus with 2 samples.

Results

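To locate putative DLX2 occupancy sites around the Iroquois genes, CUT&Tag peaks from the maxillary process were examined at the 6 mouse *Irx* genes. The genes form 2 clusters, *Irx1*, *Irx2* and *Irx4* on chromosome 13 (here IrxA) and *Irx3*, *Irx5* and *Irx6* on chromosome 8 (here IrxB). Members were taken by name and position, not by any measured value, but the set was chosen with earlier results of these data known. A peak was linked to a member when its summit lay inside the gene or had that gene as the nearest protein-coding gene, and the stretch of sequence so defined is called the territory of the gene. By this rule 64 of 28061 peaks in replicate 1 and 133 of 62093 peaks in replicate 2 belonged to the *Irx* genes. The peaks of both replicates met in 22 regions, of 10921 such shared regions in the genome. The study reported fewer peaks in each replicate, and fewer common ones, so its set of sites is not the one used here.

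The 2 libraries came from cells of the maxillary process, from which much of the upper jaw develops, of E12.5 wildtype C57BL/6 mice, and both were made with an antibody against DLX2. In CUT&Tag, an antibody directs a transposase to cut and tag the DNA around its target, so that fragments pile up where the target sits. No control antibody, input or other genotype was analysed here, and the labels do not say whether the replicates came from separate litters. Peak lists carry no expression values, so the labelled tissue was not checked against marker genes.

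Iroquois proteins are homeodomain transcription factors of the TALE class with its lengthened homeodomain, which also includes the MEIS, PBX and TGIF proteins. They pattern many embryonic tissues, including the neural tube, heart and limb, and mutations in human IRX5 cause a syndrome with altered facial shape. The clusters arose by duplication, which makes *Irx1* and *Irx3*, *Irx2* and *Irx5*, and *Irx4* and *Irx6* paralogous pairs. Their genes are short and lie far apart in sequence with few other protein-coding genes, where many of their enhancers are found. DLX2 is itself a homeodomain factor of the neural crest-derived mesenchyme of the face.

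Most of the sequence searched was gene desert. The 6 territories spanned 2.92 Mb, of which the gene bodies made up 38.8 kb. Territories ranged from 236 kb for *Irx6* to 894 kb for *Irx1*, with a median of 393 kb against 46.9 kb over all protein-coding genes. The genes themselves ranged from 3144 bp for *Irx3* to 10034 bp for *Irx4*.

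The promoters of the members were examined first. Promoter sequence from RefSeq (GRCm38.p6, the same build as mm10) was matched for *Irx2*, *Irx3* and *Irx4* among the 6 members, and for the long non-coding RNA *Crnde*, which lies next to *Irx5*. *Irx1*, *Irx5* and *Irx6* had no matched window, so their promoters were not searched in this way. No peak of either replicate touched the window from 250 bp before to 50 bp after the start of *Irx2*, *Irx3* or *Irx4*. Over all 32851 promoter windows, 0.791% were met by a replicate 1 peak, 2.69% by a replicate 2 peak and 0.161% by a shared region, so that 0 of 3 is what promoters in general would give. The 250 bases before each start are shown 5′ to 3′ to let the CpG content of these promoters be seen, with each CG dinucleotide in capitals. They lie at chr13:72628570-72628819 (plus strand) for *Irx2*, chr8:91801655-91801904 (minus strand) for *Irx3* and chr13:73260247-73260496 (plus strand) for *Irx4*.
*Irx2*: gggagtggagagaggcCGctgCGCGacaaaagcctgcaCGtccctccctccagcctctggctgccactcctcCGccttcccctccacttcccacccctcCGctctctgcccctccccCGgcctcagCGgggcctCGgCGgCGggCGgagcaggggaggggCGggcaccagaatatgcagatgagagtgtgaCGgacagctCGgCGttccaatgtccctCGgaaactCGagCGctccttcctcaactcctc
*Irx3*: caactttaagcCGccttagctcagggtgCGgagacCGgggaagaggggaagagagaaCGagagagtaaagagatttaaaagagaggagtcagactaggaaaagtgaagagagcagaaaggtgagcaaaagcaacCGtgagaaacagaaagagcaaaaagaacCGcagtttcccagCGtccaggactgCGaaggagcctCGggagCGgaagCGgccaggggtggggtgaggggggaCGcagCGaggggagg
*Irx4*: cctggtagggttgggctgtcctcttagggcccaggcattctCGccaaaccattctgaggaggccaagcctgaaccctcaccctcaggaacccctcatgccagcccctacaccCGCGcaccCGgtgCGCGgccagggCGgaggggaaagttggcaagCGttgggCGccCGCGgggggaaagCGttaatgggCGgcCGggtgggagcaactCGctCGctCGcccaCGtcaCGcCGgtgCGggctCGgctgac

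The printed stretches held 19 CG dinucleotides for *Irx2*, 13 for *Irx3* and 22 for *Irx4*. Over the 300-base windows, GC content was 69.0% for *Irx2* and 70.7% for *Irx4*, and 56% for *Irx3*, against a median of 52.7% for all windows. The nearest replicate 2 peak was 14.6 kb from the start of *Irx2*, 4.12 kb from that of *Irx3* and 2.53 kb from that of *Irx4*. In replicate 1 these distances were 12.7 kb, 26.5 kb and 8.14 kb.

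The other windows in the territories were searched in the same way. Of 20 annotated promoter windows in the 6 territories, 17 of them of genes other than the members, 1 was met by a peak in each replicate and by a shared region, and it was that of *Crnde*. This is a single event and not a rate. The window, chr8:92356071-92356370 on the minus strand, is shown because it contains a whole shared region, whose 98 bases (chr8:92356264-92356361) are in capitals.
*Crnde*: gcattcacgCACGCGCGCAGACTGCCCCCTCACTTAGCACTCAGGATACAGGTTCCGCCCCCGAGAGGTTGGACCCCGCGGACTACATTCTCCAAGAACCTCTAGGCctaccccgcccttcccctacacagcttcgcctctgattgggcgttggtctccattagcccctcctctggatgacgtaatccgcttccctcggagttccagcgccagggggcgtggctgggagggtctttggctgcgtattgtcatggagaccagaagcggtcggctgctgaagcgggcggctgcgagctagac

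The region in capitals was the only shared region within 2 kb of an *Irx* gene, at 1.44 kb from *Irx5*, and it was weak. Replicate 1 gave it a fold enrichment of 4.33 and replicate 2 one of 3.19. Fold enrichment sets the fragments at the summit against a background, which for this region in replicate 1 was at the lowest level of the library. The summits rested on an inferred 5 fragments in replicate 1 and 6 in replicate 2, and 1.64% of all shared regions had a lower fold in their weaker replicate. The region was lost at a fold of at least 5 in both replicates.

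Motifs were searched on both strands of the same windows. TAATTA, the core bound by DLX proteins, was in 1 of the 20 windows (*Gm36670*) and in 5.29% of all promoter windows. TGTGGT, a Runx core, was in 2 of 20 and in 16.8% of all, and CACGTG, the E-box bound by MNT, in 0 of 20 and in 7.15% of all. The Iroquois palindrome ACANNTGT was in 3 of 20 and in 7.38% of all. None of the 4 motifs was found in the windows of *Irx2*, *Irx3*, *Irx4* or *Crnde*. The motifs are not independent, since ACANNTGT can contain CACGTG and its end can overlap TGTGGT. The distal regions that hold nearly all the peaks were not searched, because no genome sequence was used here.

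Peak density was compared between the clusters and with the genome, to ask whether either cluster was richer in DLX2 peaks. In IrxA, 49 replicate 1 peaks gave 25.9 per Mb (95% exact Poisson interval 19.1 to 34.2), and 89 replicate 2 peaks gave 47.0 per Mb (37.7 to 57.8). In IrxB, 15 replicate 1 peaks gave 14.7 per Mb (8.23 to 24.2), and 44 replicate 2 peaks gave 43.1 per Mb (31.3 to 57.9). The genome average was 10.5 per Mb in replicate 1 and 23.3 per Mb in replicate 2. The density of IrxA was thus 2.45 times the genome average in replicate 1 and 2.01 times in replicate 2, with intervals above it in both. The density of IrxB was 1.39 times the average in replicate 1, with an interval that includes it, and 1.85 times in replicate 2, with an interval above it. Chromosome 13 as a whole had 11.4 peaks per Mb in replicate 1 and 23.2 in replicate 2, and chromosome 8 had 13.2 and 28.4. Against its own chromosome, the interval of IrxB again included the average in replicate 1 and lay above it in replicate 2. The intervals cover counting error only, and because peaks lie in groups along a chromosome they are too narrow.

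IrxA was denser than IrxB by 1.76 times in replicate 1 (95% exact interval 0.971 to 3.38) and by 1.09 times in replicate 2 (0.751 to 1.60). The mean of the ratios was 1.42 ± 0.474 (SD, n = 2). Both intervals include 1, so a difference in density between the clusters was not detectable in either replicate. Replicate 2, which has 2.21 times as many peaks as replicate 1 in the genome, had 1.82 times as many in IrxA and 2.93 times as many in IrxB. Among peaks with a fold of at least 5, IrxA (1.89 Mb) held 13 and IrxB (1.02 Mb) held 3 in replicate 1. In replicate 2 they held 22 and 6. The density ratios were 2.33 and 1.98, with a mean of 2.15. No interval was computed for them, so these small counts do not establish a difference either.

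**Figure D1:**
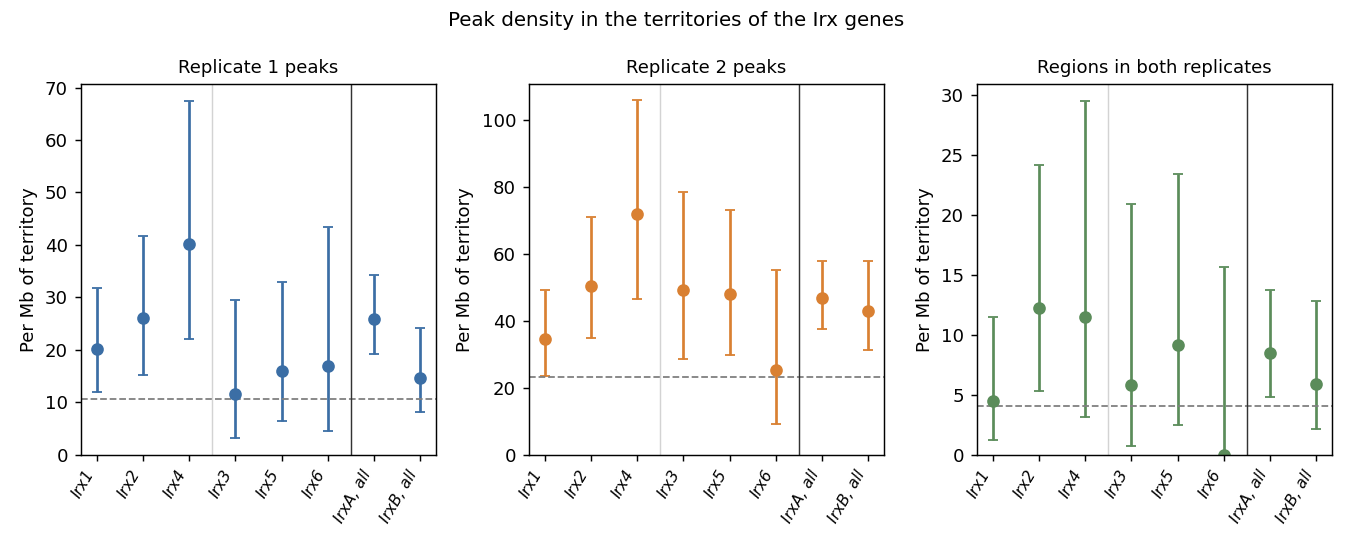
Peaks per Mb of territory for each *Irx* gene and for the IrxA and IrxB clusters as a whole, in replicate 1, in replicate 2 and for regions found in both. Points are observed densities, bars are 95% exact Poisson intervals, and the dashed lines are the genome averages of 10.5, 23.3 and 4.09 per Mb. *Irx4* had the highest peak density in both replicates, and *Irx6* had no region in both.

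The members were then compared with each other. *Irx4*, known for its role in the ventricles of the heart, had the densest territory, with 14 peaks or 40.2 per Mb in replicate 1 (22.0 to 67.5) and 25 peaks or 71.9 per Mb in replicate 2 (46.5 to 106). Among the 3142 protein-coding genes with a territory of at least 200 kb, 97.7% had a lower density in replicate 1 and 96.3% in replicate 2. The median of these long territories was 7.10 peaks per Mb in replicate 1 and 15.0 in replicate 2, below the density of each of the 6 members in its replicate.

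*Irx2* followed in both replicates, with 17 peaks or 26.0 per Mb in replicate 1 and 33 peaks or 50.6 per Mb in replicate 2. *Irx1* held 18 peaks in replicate 1 and 31 in replicate 2, and because its territory is the longest this came to 20.1 and 34.7 per Mb. Within IrxA the order *Irx4*, *Irx2*, *Irx1* was therefore the same in both replicates, although the intervals of neighbours in it overlap.

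In IrxB the order was not the same in both. *Irx3*, a regulator of body mass in mice, had 4 peaks or 11.6 per Mb in replicate 1, the lowest of the 6, but 17 peaks or 49.1 per Mb in replicate 2, the third highest. *Irx5* had 7 peaks or 16.0 per Mb in replicate 1 and 21 peaks or 47.9 per Mb in replicate 2. *Irx6*, best known from the retina, had 4 peaks or 16.9 per Mb in replicate 1 and 6 peaks or 25.4 per Mb in replicate 2, the lowest density there. All 3 IrxB intervals overlap each other in each replicate.

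Shared regions were fewer. Of the 6 genes, 5 had at least 1 linked shared region, against 25.4% of all 21761 protein-coding genes and 62.0% of those with a territory of at least 200 kb, which is the closer comparison for genes in deserts. *Irx2* had 8 shared regions, *Irx1*, *Irx4* and *Irx5* had 4 each, *Irx3* had 2 and *Irx6* had 0. For *Irx6*, 0 regions in 236 kb allow a density of up to 15.6 per Mb, so the absence says little. The shared regions of IrxA came to 8.44 per Mb (4.83 to 13.7) and those of IrxB to 5.88 per Mb (2.16 to 12.8), against 4.09 in the genome. Chromosome 13 as a whole had 4.27 per Mb and chromosome 8 had 5.69, close to the value of IrxB. The ratio of IrxA to IrxB was 1.44 (0.534 to 4.48), and no difference between the clusters was detectable. By density, the shared regions of *Irx2* (12.3 per Mb, 5.29 to 24.1) were above those of 90.3% of the long territories. Its 8 regions came to 2 at a fold or a −log10 q of at least 5 in both replicates, and to 0 when the nearest gene of any type was used.

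The 22 shared regions rested on 22 peaks of replicate 1 but 20 of replicate 2, because 2 broad replicate 2 peaks, 1 in each cluster, each met 2 replicate 1 peaks. Counted by replicate 2 peak, IrxA had 15 and IrxB had 5. The regions had a median length of 195 bp (range 75 to 704), against 151 bp for all shared regions. Summits of the replicates lay a median of 79.5 bp apart, against 63 bp for all shared regions, and 15 of the 22 pairs lay within 100 bp.

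**Figure D2:**
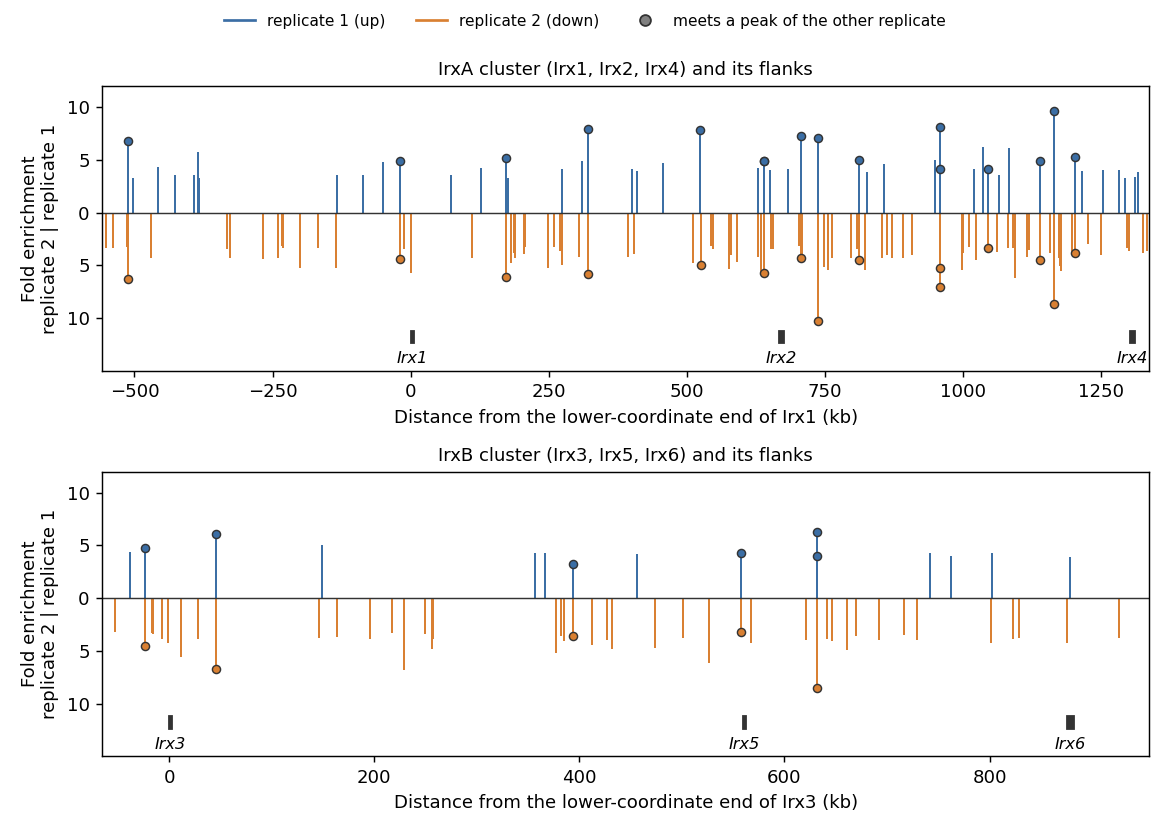
Peaks along the IrxA (top) and IrxB (bottom) clusters and their flanks, by the distance of the summit from the lower-coordinate end of *Irx1* or *Irx3* in kb. Lines upward give the fold enrichment in replicate 1, lines downward that in replicate 2, circles mark peaks that meet a peak of the other replicate, and black boxes mark the genes. Nearly all peaks, and all but 1 of the 22 shared *Irx* regions, lie more than 2 kb from any *Irx* gene.

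The shared regions were distal. Their distance to the linked gene had a median of 117 kb and a range of 1.44 to 512 kb, with 15 of 22 beyond 50 kb and 11 beyond 100 kb. No shared region lay inside an *Irx* gene. The gene bodies made up 38.8 kb of the 2.92 Mb of territory, so long distances follow largely from the linking rule. Distances of randomly placed regions were not computed. The *Irx* peaks of each replicate, which include those that form the shared regions, had similar distances, with a median of 136 kb in both.

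Within 2 kb of an *Irx* gene or inside it there were 3 peaks in replicate 1 and 5 in replicate 2, which include the pair at the *Crnde* promoter. The closest outside a gene was a replicate 2 peak 331 bp from *Irx6* (fold 4.27), not met by replicate 1. Inside the genes there were 2 in replicate 1, in *Irx4* (fold 3.38) and *Irx6* (fold 3.87), and 1 in replicate 2, in *Irx1* (fold 5.71), none of them met by the other replicate. At the average density of the 6 territories the gene bodies would hold 0.851 peaks in replicate 1 and 1.77 in replicate 2, so the counts are too small to set apart from that density. *Irx2*, *Irx3* and *Irx5* had no peak within the gene in either replicate.

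In the stretches between genes, the densest long one was that from *Irx2* to *Irx4*, of 625 kb. Replicate 1 had 21 peaks there (33.6 per Mb) and replicate 2 had 41 (65.6 per Mb), and 9 regions were shared. The stretch from *Irx1* to *Irx2*, of 661 kb, held 15, 29 and 5. On the far side of *Irx1*, toward *Adamts16*, 558 kb held 11, 16 and 2. In IrxB the stretch from *Irx3* to *Irx5*, of 556 kb, held 7, 22 and 3, and that from *Irx5* to *Irx6*, of 313 kb, held 5, 15 and 2.

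The paralogous stretches were compared by density. From *Irx2* to *Irx4* against *Irx5* to *Irx6*, the ratio was 2.10 in replicate 1 (0.771 to 7.13), 1.37 in replicate 2 (0.741 to 2.66) and 2.25 for shared regions (0.466 to 21.4). From *Irx1* to *Irx2* against *Irx3* to *Irx5*, it was 1.80 (0.692 to 5.23), 1.11 (0.616 to 2.03) and 1.40 (0.273 to 9.03). All 6 ratios were above 1 and all 6 intervals include 1, and the shared regions are built from the peaks of the other 2 sets.

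The strongest shared regions lay in IrxA. That with the highest fold in its weaker replicate was in the *Irx4* territory on chromosome 13 at 73122936 to 73123244, 136 kb from the gene, where replicate 1 had a fold of 9.66 and replicate 2 one of 8.70. An inferred 14 fragments in replicate 1 and 19 in replicate 2 lay at its summits, and it ranked 169 of 10921 shared regions in the genome. The 3 other shared regions of *Irx4* had folds between 3.37 and 5.25 in either replicate.

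The territory of *Irx2*, whose neural and limb expression largely follows that of *Irx1*, held the next strongest. A region at 72695890 to 72696264, 61.7 kb away on the *Irx4* side, had 7.05 in replicate 1 and 10.3 in replicate 2 as its folds, the latter the highest value of any *Irx* peak. A region at 72915577 to 72915828, 281 kb away, had 8.11 and 7.03, and a weaker one of 4.10 and 5.24 lay at 72916782 to 72916898. The region at 72663655 to 72663970 had 7.28 and 4.31 and that at 72482729 to 72482811 had 7.81 and 4.95, so both were stronger in replicate 1. A broad replicate 2 peak with a fold of 5.76, in the long non-coding RNA gene *Gm38580* and 26.2 kb from *Irx2* at its nearest shared base, met 2 replicate 1 peaks with folds of 4.91 and 4.93. The last *Irx2* region, at 72769727 to 72769801, had folds of 4.97 and 4.48.

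*Irx1* had 2 of its 4 shared regions past a −log10 q of 5 in both replicates. At 71445977 to 71446287, 512 kb from the gene and nearest to *Adamts16* in the cluster, the folds were 6.84 in replicate 1 and 6.27 in replicate 2, with summits 10 bp apart. At 72279636 to 72279947, 316 kb away on the *Irx2* side, they were 7.95 and 5.85, with summits 11 bp apart. The region at 72129896 to 72130039 had 5.21 and 6.07 with summits 9 bp apart, and that at 71937951 to 71938126, 20.1 kb from *Irx1*, had 4.92 and 4.41.

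In IrxB the strongest was near *Irx5*. A replicate 2 peak with a fold of 8.56, on chromosome 8 at 92429803 to 92430573, met 2 replicate 1 peaks, with folds of 6.30 and 3.98, at 68.5 and 68.8 kb from *Irx5* on the *Irx6* side. An inferred 22 fragments lay at its summit, against 10 and 6 at those of replicate 1. The longest shared region of all 22 was in the *Irx3* territory at 91843574 to 91844277, within the non-coding gene *Irx3os*, with folds of 6.06 and 6.71. The other *Irx3* region, at 91774978 to 91775187 on the *Fto* side, had 4.75 and 4.56. The remaining *Irx5* region, at 92192067 to 92192203, was among the weakest, with 3.21 and 3.55.

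**Figure D3:**
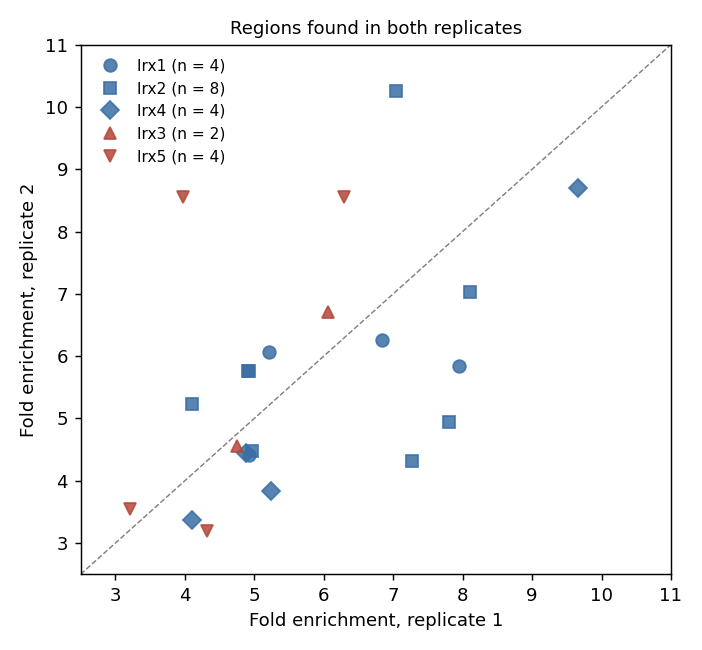
Fold enrichment of the 22 shared *Irx* regions in replicate 1 (x axis) and replicate 2 (y axis), with blue symbols for IrxA genes, red symbols for IrxB genes and a dashed line of equal fold. Points lie on both sides of the line, 13 higher in replicate 1 and 9 higher in replicate 2, where the *Irx4* region at 9.66 and 8.70 is highest in replicate 1, and an *Irx2* region at 7.05 and 10.3 is highest in replicate 2.

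Across the 22 regions, the median fold was 5.09 in replicate 1 and 5.50 in replicate 2, close to the 5.05 and 5.12 of all shared regions. Spearman's rho between the replicates was 0.504 over the 22 regions and 0.440 over all shared regions. These are descriptions without a test, since regions are not replicates and 2 pairs share a replicate 2 peak. In IrxA the folds ranged from 4.10 to 9.66 in replicate 1 and 3.37 to 10.3 in replicate 2. In IrxB they ranged from 3.21 to 6.30 and from 3.19 to 8.56, so the ranges of the clusters overlap in both replicates. At a −log10 q of at least 5 in both replicates, 6 of the 22 regions were left, 5 of 16 in IrxA and 1 of 6 in IrxB. These counts are too small to set the clusters apart. The share of all shared regions that pass this limit was not computed.

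The recurrence of *Irx* peaks was examined against that of all peaks. Of the *Irx* peaks of replicate 1, 22 of 64 or 34.4% overlapped one of replicate 2 (95% Wilson interval 23.9 to 46.6%). Over all replicate 1 peaks the share was 38.9%. In the other direction 20 of 133 or 15.0% did (9.95 to 22.1%), against 17.2% of all replicate 2 peaks. In neither direction did the *Irx* peaks recur detectably more or less often than peaks in general. In replicate 1 the share was 32.7% in IrxA (16 of 49, interval 21.2 to 46.6%) and 40% in IrxB (6 of 15, 19.8 to 64.3%). In replicate 2 it was 16.9% in IrxA (15 of 89, 10.5 to 26.0%) and 11.4% in IrxB (5 of 44, 4.95 to 24.0%), the opposite order.

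The share met was higher at higher fold, at the *Irx* genes as over all peaks. Below a fold of 4 it was 2 of 19 in replicate 1 and 4 of 63 in replicate 2. These *Irx* shares, 10.5% and 6.35%, had 95% Wilson intervals that include the 20.3% and 6.99% of all such peaks. At a fold of 6 or more the *Irx* share was 9 of 11 or 81.8% in replicate 1 (52.3 to 94.9%). In replicate 2 it was 7 of 10 or 70% (39.7 to 89.2%). Over all such peaks the shares were 81.1% and 67.2%.

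**Figure D4:**
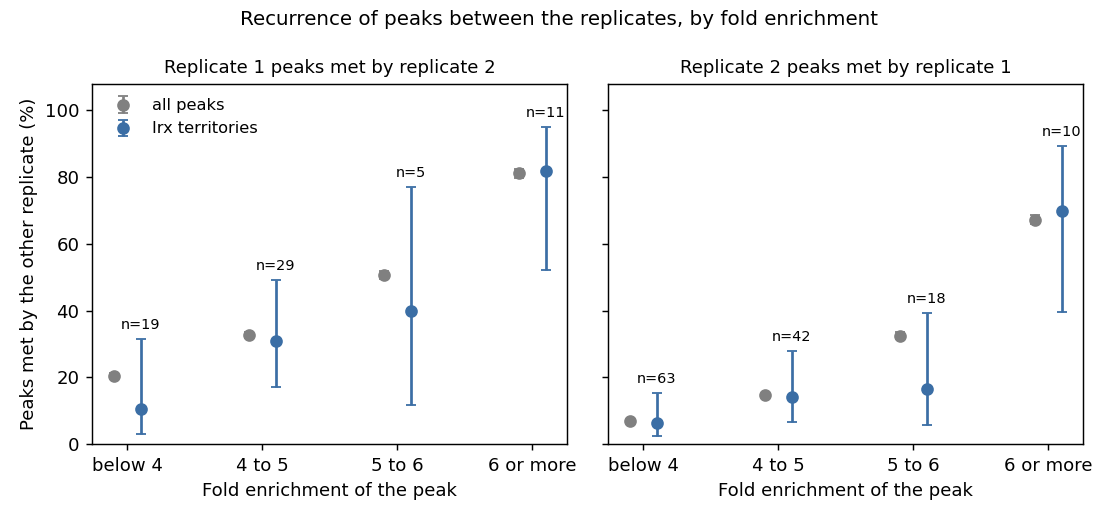
Percentage of peaks that meet a peak of the other replicate, by fold enrichment class, for all peaks (grey) and for peaks in the *Irx* territories (blue), with 95% Wilson intervals and the number of *Irx* peaks above each. The highest shares at the *Irx* genes are those at a fold of 6 or more, with 81.8% in replicate 1 and 70% in replicate 2.

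Peaks found in 1 replicate alone were mostly weak, but each gene had at least 1 that was not met. The strongest of all lay in the *Irx3* territory in replicate 2, at 92027478 to 92027671 with a fold of 6.83 and an inferred 15 fragments. For *Irx4* the strongest was in replicate 1 with a fold of 6.20, for *Irx5* in replicate 2 with 6.18, for *Irx2* in replicate 2 with 5.83 and for *Irx1* in replicate 1 with 5.80. For *Irx6*, whose 4 replicate 1 and 6 replicate 2 peaks never met, it was a replicate 1 peak with 4.33 and an inferred 5 fragments.

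Among the genes that border the clusters, *Adamts16* alone had an interval above the average in both replicates. The territory of *Adamts16*, a secreted protease gene that shares its desert with *Irx1*, had 22.3 peaks per Mb in replicate 1 (16 peaks), 48.8 in replicate 2 (35 peaks) and 11 shared regions (15.3 per Mb, 7.66 to 27.4), none of the last within the gene. On the other side of *Irx4*, *Ndufs6*, a subunit of mitochondrial complex I, had 0 peaks in replicate 1 and 4 in replicate 2.

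Beside IrxB, *Fto*, an RNA demethylase gene whose introns are known to hold enhancers of *Irx3*, had 7 peaks in replicate 1 and 16 in replicate 2, and 1 shared region, in a territory of 420 kb. *Rpgrip1l*, a gene of the primary cilium, had 2, 4 and 1. *Mmp2*, a matrix metalloprotease gene next to *Irx6*, had 3, 6 and 2 in 100 kb. The intervals of *Fto* and *Mmp2* include the genome average in both replicates. None of these peaks entered the *Irx* counts, since the nearest protein-coding gene is another.

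Among 12 other TALE homeobox genes, with territories of 5.42 to 1055 kb, 5 had at least 1 linked shared region. Over all protein-coding genes the share was 25.4%, and 62.0% over those with a territory of at least 200 kb. A replicate 1 peak was linked to 8 of the 12 and a replicate 2 peak to 11. The shares of all genes with such peaks were not computed. Together the 12 genes had 9.04 peaks per Mb in replicate 1 (6.26 to 12.6), 25.3 in replicate 2 (20.4 to 30.9) and 3.72 shared regions per Mb (2.04 to 6.25). The *Irx* genes as a whole had 22.0 (16.9 to 28.0), 45.6 (38.2 to 54.1) and 7.55 (4.73 to 11.4), and the intervals of the 2 sets are apart for the peaks of each replicate and overlap for shared regions. *Pbx3* had 4 shared regions, and *Meis1* and *Meis2* had 3 each.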

How the data were processed

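Per the labels, both samples are DLX2 CUT&Tag of E12.5 wildtype maxillary process. Replicates are numbered in the order of their records. The labels describe sonicated chromatin and the study's methods transposase tagging. The submitters' processing notes name Trim Galore 0.4.5, Bowtie 1.1.2, MACS2 2.2.7 and mm10, whereas the methods name other versions and bowtie2. The authors called peaks in each replicate on its own. Peak calling settings are not given in the sources used here, and both deposited lists stop at a q of 0.1.

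The deposited fold enrichment is a ratio to background. The deposited −log10 p and −log10 q are the peak caller's own, and the deposited score is the whole part of 10 times −log10 q. The lists give no read depth. Fragments at a summit were inferred from fold and −log10 p, taking fold as fragments plus 1 over background plus 1 and p as a Poisson upper tail. A whole number fitted 100% of peaks within 0.001 in −log10 p. The lowest inferred background was 0.387 in replicate 1 and 1.10 in replicate 2, a floor at which several *Irx* peaks sat.

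Shared regions are the stretches where peaks of both replicates overlap (at least 1 bp). Peaks were placed by summit and shared regions by midpoint, against RefSeq genes of GRCm38.p6. Genes listed before position 3000000 were left out, which left 21761 protein-coding genes on chromosomes 1 to 19, X and Y. Of these, 577 lie wholly within others and had no territory of their own. Rates carry 95% exact Poisson intervals, ratios exact conditional intervals and shares Wilson intervals, all for counting error only. With 1 group and no control, no test between groups was made. The scripts were tested on simulated data.

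The members, gene lists and motifs were chosen with earlier results of these data known. Named were all members, their flanking genes, *Fto*, *Rpgrip1l*, *Crnde*, 12 other TALE genes, every shared *Irx* region and the strongest unmatched peak of each member. The values of 1 TALE gene are not reported here. The printed promoters of *Irx2*, *Irx3* and *Irx4*, the limit of 200 kb for long territories and *Irx3os*, *Gm38580* and *Gm36670* were chosen after the values were seen. The work used numpy 2.4.6, scipy 1.17.1, pandas 2.3.3 and matplotlib 3.10.9 in Python 3.11.15.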

Additional observations from a re-analysis of the deposited data

How the results depend on the processing

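Of 40 alternative values, 27 kept their direction and stayed within the spread or interval of the value reported or within 1.5 times its count. A further 1, a ratio for shared regions, stayed within its interval but changed direction. The count of 27 is not a measure of robustness. For the peak density ratio the spread is the SD of 2 replicates, within which each replicate alone always falls. For the shared region ratio the interval is wide (0.534 to 4.48). The mean ratio of peak density, IrxA over IrxB, was 1.42, with no detectable difference in either replicate. It came to 2.48 once a −log10 q of 5 was required and 2.15 with a minimum fold of 5. It was 1.09 to 1.76 with 1 replicate left out. The 2.48 rests on 7 peaks against 1 in replicate 1 (ratio 3.77) and 11 against 5 in replicate 2 (ratio 1.19). The ratio for shared regions turned from 1.44 to 0.962 with the nearest gene of any type, where 2 regions were left in each cluster, and that for replicate 2 peaks from 1.09 to 0.770 (12 peaks in IrxA and 15 in IrxB). The share of replicate 1 *Irx* peaks met by replicate 2, 34.4%, was 75% with that q limit, 50% with that fold limit and 20.3% with 50% of each peak shared. Over all replicate 1 peaks, with no limit on replicate 2, the share also rose with fold, from 20.3% below 4 to 81.1% at 6 or more. Values over all peaks, all shared regions or all genes were not computed for the alternative settings. The 22 linked shared regions came to 6 with the q limit, 8 with the fold limit, 13 with 50% of each peak shared and 4 with the nearest gene of any type. They were 64 to 133 when the peaks of 1 replicate were taken alone. Genes with a linked shared region fell from 5 to 2 with the nearest gene of any type, since non-coding genes then take most of the deserts, and were 6 with either replicate alone. With the q and fold limits fewer peaks pass, and with 50% of each peak shared the same peaks meet a stricter overlap. The cause of the higher ratios was not tested. For single genes, 16 of 24 alternative counts were lower by more than 1.5 times and 8 were not. Counting segments under 1 peak once was added after the data were seen. Leaving assembly gaps out of the territories was not run, because no genome was used here. No paired analysis was possible because both samples belong to 1 group and no test was made. Few fragments per peak limit what the weaker peaks can show, and without a control library background shared by both replicates cannot be told apart from DLX2 sites.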
